A study of Homo sapiens with 4 samples.

Results

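FOXK2 occupancy at 10 long noncoding RNA (lncRNA) genes with known roles in cancer was examined in OVCAR5 cells. The genes were MALAT1, NEAT1, H19, HOTAIR, GAS5, PVT1, SNHG1, SNHG12, MEG3 and SPINT1-AS1, and their peaks were the rows that carry one of these gene names in the deposited annotation. These were 3 of 12471 peaks in replicate 1 and 7 of 27281 peaks in replicate 2, and 4 of the 10 genes had a row in at least 1 list. All 10 are annotated as lncRNA genes in GENCODE. The study mapped FOXK2 binding in OVCAR5 to find its target genes, by chromatin immunoprecipitation and sequencing (ChIP-seq) with an antibody against FOXK2. OVCAR5 is an established ovarian cancer cell line, which the labels describe as high grade serous, derived from ascites and used at passage 4 to 6. Both FOXK2 libraries are biological replicates of cells in the same growth medium, with no treatment in the labels, so no condition is compared with another. The lists hold binding only: the RNA of these genes was not analysed here, and a peak near a gene does not say that the gene changes with FOXK2.

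FOXK2 is a forkhead transcription factor, a class of proteins that read a short DNA word, TGTTTAC or close relatives of it, through a winged helix domain. Long noncoding RNAs are long transcripts that are not translated into a known protein. Many act where they are made, by scaffolding nuclear bodies or by regulating a neighbouring gene, and others are hosts from whose introns small nucleolar RNAs (snoRNAs) or microRNAs are cut. Several are abundant in tumors, and their promoters and enhancers are targets of oncogenic transcription factors such as MYC.

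A peak was assigned to the gene with the nearest transcription start site (TSS), at any distance. By that annotation, 3 of the 10 genes had a peak in replicate 1 (MALAT1, HOTAIR and SPINT1-AS1), while 22.2% of all RefSeq lncRNA genes and 32.3% of protein-coding genes did. In replicate 2, 3 of the 10 genes had a peak (MALAT1, NEAT1 and SPINT1-AS1), beside 36.1% of lncRNA genes and 53.3% of protein-coding genes. MALAT1 and SPINT1-AS1 had a peak in both replicates, beside 20.3% and 29.5% of genes in these classes. With 10 genes, these counts lie close to the shares of lncRNA genes in general. By the deposited class, 1 of the 3 assigned peaks in replicate 1 and 5 of the 7 in replicate 2 were intergenic, beside 34.1% and 36.5% of all peaks. These were all from the adjoining MALAT1 and NEAT1 genes, so they are not separate observations.

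Peaks were also counted by position, inside the GENCODE span of a gene or up to 1000 bp before its start, whatever gene the annotation named. On this measure 2 of the 10 genes had a peak in replicate 1 (HOTAIR and PVT1), beside 12.9% of GENCODE lncRNA genes and 31.4% of protein-coding genes. In replicate 2 there were 5 (MALAT1, NEAT1, GAS5, PVT1 and SNHG1), beside 22.8% and 51.5%. PVT1 alone had peaks by position in both replicates, a state found for 11.3% of lncRNA genes and 28.5% of protein-coding genes. PVT1, GAS5 and SNHG1, which had no peak by name, thus had peaks by position that the annotation gave to other genes. Those of PVT1 and GAS5 lay within the gene, and that of SNHG1 was centred 87 bp before its GENCODE start. In replicate 2, MALAT1 and NEAT1 also held a peak named for another gene. H19, SNHG12 and MEG3 had no peak by either measure in either replicate. PVT1 is a far longer gene than the others, which bears on any count by position.

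**Figure D1:**
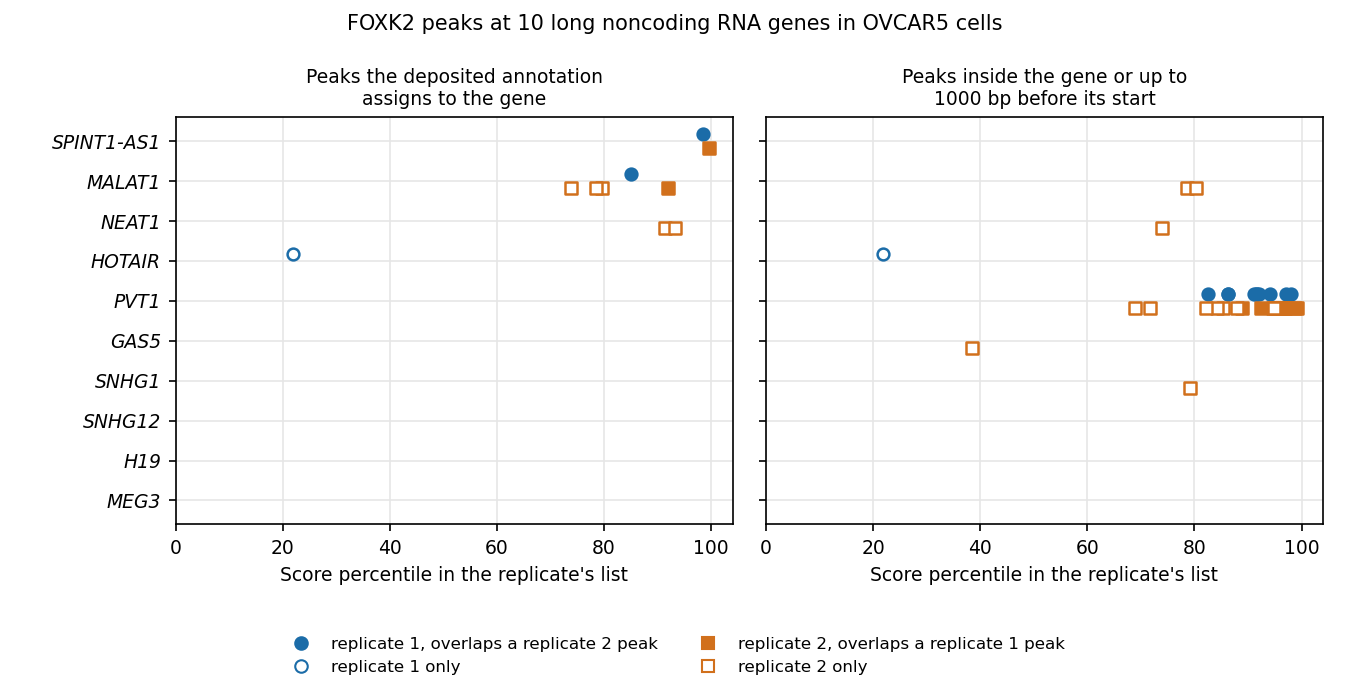
Each point is a FOXK2 peak and the x axis gives its score percentile within the list of its own replicate, for peaks assigned to the gene (left) and peaks inside it or up to 1000 bp before its start (right). Circles are replicate 1, squares replicate 2, and filled symbols overlap a peak of the other replicate. The SPINT1-AS1 peaks stand at 98.4 and 99.6, and PVT1 has no point on the left but 10 and 17 on the right.

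Of all peaks, 74.9% in replicate 1 and 34.2% in replicate 2 overlapped a peak of the other replicate by at least 1 bp. Among the peaks assigned to the 10 genes this held for 2 of 3 and 2 of 7, the same 2 sites seen from each list. Most of the 7 lay at the adjoining MALAT1 and NEAT1 genes and are not separate observations, so no interval is given. Scores were scaled to each library and were therefore ranked only within their own list, the percentile rising with the score. Within a list every low score was a whole multiple of the same step, so each was also read as the number of sequenced tags in the peak, with an exact Poisson 95% interval for counting error only. On that reading the median was 31 tags per peak in replicate 1 and 49 in replicate 2.

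SPINT1-AS1, an antisense RNA transcribed from beside the promoter of SPINT1, which encodes a membrane inhibitor of serine proteases, carried the strongest peak assigned to any of the 10 genes. The gene lies on the minus strand at chr15:40835808-40844442 (hg38). The peak was at chr15:40846051-40846261 in replicate 1, with a score of 22.6, and at chr15:40846022-40846278 in replicate 2, with a score of 57.1. It held 120 tags (99.5 to 143) and 384 tags (347 to 424), respectively. These scores rank 195 of 12471 peaks and 103 of 27281 peaks, at percentiles 98.4 and 99.6. The peak of replicate 1 lay wholly within that of replicate 2, and their centres were 6 bp apart. The focus ratio, the fraction of tags on the expected side of the peak centre, was 0.887 and 0.912, against list medians of 0.758 and 0.755.

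The centre lay 1632 bp and 1626 bp before the TSS of SPINT1-AS1 in the annotation, and the deposited class was intron, because the site is in intron 1 of SPINT1. The SPINT1 start in GENCODE is closer, 1481 bp and 1475 bp away, so the name SPINT1-AS1 does not tell which of the genes the site belongs to. The forkhead heptamer TGTTTAC was sought on either strand up to 100 bp from each peak centre, where it was present in 30.5% of all replicate 1 peaks and 28.2% of all replicate 2 peaks. Control windows placed 2000 bp to each side held it in 2.88% and 2.89%. The SPINT1-AS1 peak had 1 heptamer, at chr15:40846166-40846172 on the plus strand, 13 bp and 19 bp from its centres. It was the only peak assigned to these genes with an exact heptamer in this window. A binding site for the AP-1 factors, TGAGTCA, which reads TGACTCA on the opposite strand, was found at the edge of the replicate 2 peak, 102 bp before its centre. The sequence of the replicate 2 peak, plus strand, shows both, with the heptamer in capitals.
SPINT1-AS1 peak: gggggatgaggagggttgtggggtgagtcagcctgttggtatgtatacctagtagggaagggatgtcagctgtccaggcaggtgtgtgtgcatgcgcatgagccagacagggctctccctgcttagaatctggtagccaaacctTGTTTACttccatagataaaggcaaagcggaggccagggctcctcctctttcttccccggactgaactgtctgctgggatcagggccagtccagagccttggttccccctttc

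MALAT1 and NEAT1 are neighbours on chromosome 11, with 52100 bp between them, and both encode abundant nuclear RNAs. MALAT1 RNA gathers at nuclear speckles, where splicing factors are stored, and NEAT1 RNA is the scaffold of paraspeckles. From 10000 bp before NEAT1 to 10000 bp after MALAT1, a window of 105300 bp, there was 1 peak in replicate 1 and 8 peaks in replicate 2, and only 1 was found in both. The whole genome held 0.404 and 0.883 peaks per 100000 bp.

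The shared site lay in intergenic DNA before MALAT1 (chr11:65497640-65508073, plus strand), at 25385 bp and 25447 bp from its TSS. It was called at chr11:65472248-65472458 in replicate 1, with a score of 10.0 and 53 tags (39.7 to 69.3). In replicate 2 it was at chr11:65472163-65472419, with a score of 17.8 and 120 tags (99.5 to 143). The percentiles were 85.0 and 92.0, the overlap was 171 bp and the centres were 62 bp apart. In replicate 1 its focus ratio of 0.627 was low for the list, at percentile 6.64 of all focus ratios. In replicate 2 it was 0.739. No exact heptamer lay within 100 bp of either centre, and the nearest was 176 bp and 238 bp away. The degenerate forkhead core (NNAAANA on either strand, with a purine first and pyrimidines at the other open positions) also matches the heptamer, and was present in 57.9% and 56.9% of all peaks against 30.2% and 30.5% of control windows. The shared site held it once, as ATAAATA on the minus strand at chr11:65472290-65472296. The AP-1 site stood 42 bp before the centre in replicate 2, across the edge of the replicate 1 peak, and was present near the centre of 16.4% and 16.6% of all peaks against 3.03% and 3.02% of control windows.

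Of the other MALAT1 peaks, found in replicate 2 alone, 3 were before the gene and 1 was inside it. At the promoter, chr11:65497380-65497636, a peak centred 230 bp before the TSS had a score of 11.6 (78 tags, 61.7 to 97.3; percentile 78.5). In replicate 1 the nearest peak to it was 25155 bp away. The peaks 9906 bp and 20465 bp before the TSS had scores of 11.9 and 10.6, at percentiles 79.7 and 73.9. Both were classed as intergenic, but in GENCODE the peak at 9906 bp is in an intron of LINC02736. That at 20465 bp is in an exon of a gene without a symbol. The last lay near the end of MALAT1, at chr11:65507541-65507797, with a score of 12.0 (percentile 80.2), and was named for TALAM1, the antisense transcript of the same locus. In this part of the replicate 2 list, decile 3 of the scores from the top, 52.0% of peaks were shared, and 70.2% were in the decile above. Of these 4 peaks, only that at 9906 bp held a forkhead core, ATAAACA at chr11:65487835-65487841 on the minus strand. The sequences show the shared site and this second core in capitals, and the promoter peak, which had no forkhead word and was 71.1% G and C beside a list median of 46.3%. All are plus strand at replicate 2 coordinates.
MALAT1 shared distal peak: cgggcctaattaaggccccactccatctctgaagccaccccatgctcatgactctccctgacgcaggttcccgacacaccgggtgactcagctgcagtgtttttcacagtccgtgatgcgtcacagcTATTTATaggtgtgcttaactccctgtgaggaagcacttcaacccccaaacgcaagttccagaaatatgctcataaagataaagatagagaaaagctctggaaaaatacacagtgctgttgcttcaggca
MALAT1 peak with ATAAACA: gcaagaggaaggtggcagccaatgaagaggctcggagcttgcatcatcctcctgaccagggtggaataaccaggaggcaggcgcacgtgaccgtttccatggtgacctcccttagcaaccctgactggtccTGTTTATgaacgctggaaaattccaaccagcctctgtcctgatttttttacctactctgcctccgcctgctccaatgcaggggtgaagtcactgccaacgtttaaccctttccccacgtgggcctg
MALAT1 promoter peak: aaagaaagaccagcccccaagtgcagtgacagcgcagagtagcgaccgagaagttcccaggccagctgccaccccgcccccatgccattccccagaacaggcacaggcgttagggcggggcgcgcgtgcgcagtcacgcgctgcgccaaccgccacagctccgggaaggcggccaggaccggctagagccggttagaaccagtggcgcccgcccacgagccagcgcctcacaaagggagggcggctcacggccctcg

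NEAT1 (chr11:65422774-65445540, plus strand) had its peaks in replicate 2 alone. The stronger, at chr11:65421195-65421451, was centred 1475 bp before the TSS and had a score of 18.9 (127 tags, 106 to 151; percentile 93.2). The other, at chr11:65418966-65419222 and 3704 bp before the TSS, had a score of 17.4 (117 tags, 96.8 to 140; percentile 91.4), with a low focus ratio of 0.610. Both were in the top score decile of replicate 2, where 91.1% of peaks had a partner in replicate 1. Here the nearest replicate 1 peak was 38832 bp and 36603 bp away. Among the 17939 unshared peaks of replicate 2, whose median score was 5.95, they ranked 93 and 168. Neither held the heptamer, the degenerate core or the AP-1 site. A further peak lay inside NEAT1 itself, at chr11:65437464-65437720, with a score of 10.6 (71 tags, 55.5 to 89.6), and was named for MIR612, a microRNA gene within the locus. This weaker peak did hold an exact heptamer, at chr11:65437598-65437604, 9 bp from the centre. The strongest peak, with no forkhead word, and the internal peak, with the heptamer in capitals, are given on the plus strand.
NEAT1 upstream peak: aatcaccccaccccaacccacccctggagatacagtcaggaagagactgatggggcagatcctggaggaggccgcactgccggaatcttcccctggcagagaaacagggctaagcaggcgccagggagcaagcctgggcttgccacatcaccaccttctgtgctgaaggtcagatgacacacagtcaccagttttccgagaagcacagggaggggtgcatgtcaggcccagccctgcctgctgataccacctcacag
NEAT1 internal peak: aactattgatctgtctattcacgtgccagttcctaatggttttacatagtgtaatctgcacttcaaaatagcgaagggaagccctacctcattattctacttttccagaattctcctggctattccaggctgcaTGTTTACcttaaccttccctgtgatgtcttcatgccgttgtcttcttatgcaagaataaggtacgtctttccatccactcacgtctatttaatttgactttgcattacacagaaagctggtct

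**Figure D2:**
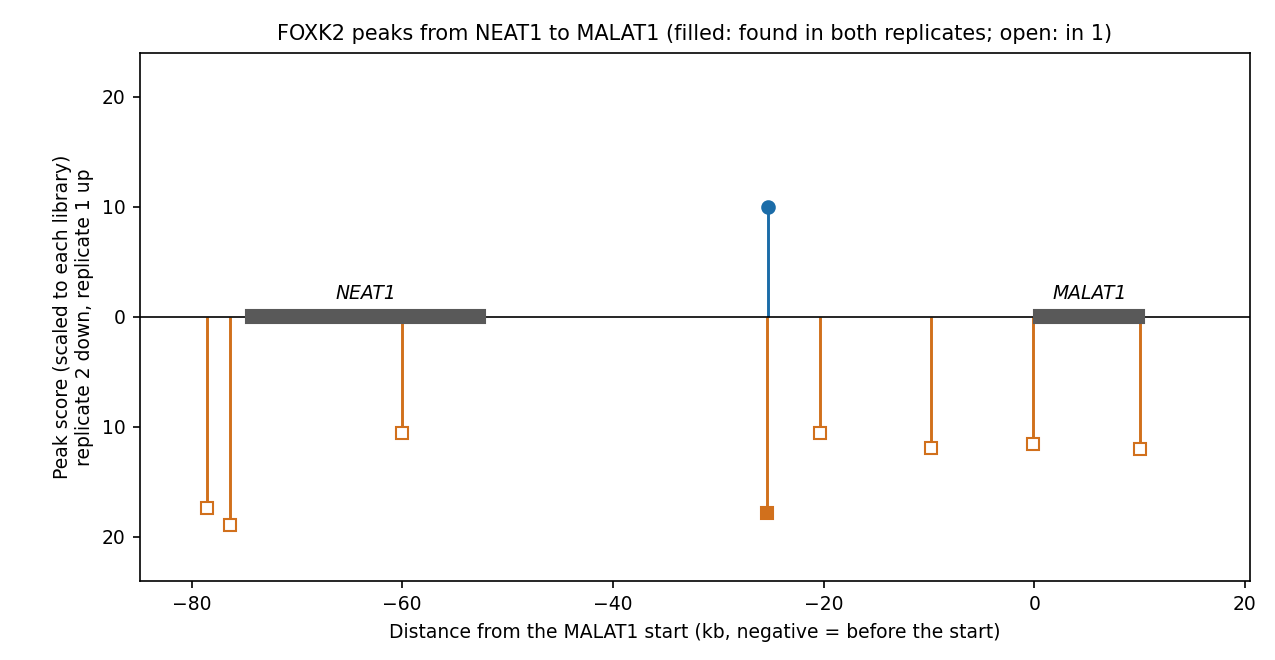
FOXK2 peaks from 10 kb before NEAT1 to 10 kb after MALAT1, by distance from the MALAT1 start in kb (x axis) and peak score (y axis, replicate 1 up and replicate 2 down, each on the scale of its own library). Grey bars are the genes, and filled symbols mark the site found in both replicates. That site, at 10.0 and 17.8, is the only peak of replicate 1, and 7 further peaks of replicate 2 score from 10.6 to 18.9.

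Counted within 100000 bp of the MALAT1 start, there were 2 peaks in replicate 1 and 11 in replicate 2. At least 2 peaks in replicate 1 were near 33.2% of GENCODE lncRNA genes, but at least 11 in replicate 2 were near 0.366%. For NEAT1 the counts were 2 and 10, and at least 10 were near 0.816%. The excess of replicate 2 over replicate 1, 9 peaks at MALAT1 and 8 at NEAT1, was reached at 0.0795% and 0.244% of lncRNA genes, whose median excess was 1 peak. Both genes share most of this window, so they are not separate observations. The list of replicate 2 was 2.19 times as long as that of replicate 1, the implied number of tags was 67200000 against 53000000, and the part of depth or of RNA abundance in the difference was not tested.

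HOTAIR and PVT1 are transcribed from well-studied cancer loci. HOTAIR is made within the HOXC cluster and is known for its association with chromatin-modifying complexes. It lies on the minus strand at chr12:53962308-53974956. Its peak was in replicate 1 alone, at chr12:53975206-53975416 and 355 bp before the TSS, and was the weakest of those assigned to these genes. The score of 4.53 corresponded to 24 tags (15.4 to 35.7) and percentile 21.9. In its score decile 58.0% of peaks had a partner in replicate 2, and here the nearest was 20257 bp away. The deposited class was promoter, but the centre is also in an exon of HOXC11, a homeobox gene on the opposite strand that starts 2183 bp away. No forkhead word or AP-1 site was within 100 bp of the centre.

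PVT1, the lncRNA gene next to MYC that is gained with it in many tumors, showed the reverse. No peak carried its name, yet 10 peaks of replicate 1 and 17 peaks of replicate 2 lay in its GENCODE span of 392576 bp on chromosome 8. The annotation gave them to the microRNA genes within PVT1 and to TMEM75: MIR1204 received 4 and 6 peaks, TMEM75 2 and 5, MIR1207 1 and 2, and MIR1208 3 and 4. All 10 peaks of replicate 1 overlapped a peak of replicate 2, and 10 of the 17 in replicate 2 overlapped one of replicate 1. The centres of the paired peaks were a median of 30.5 bp apart. Deposited classes were intron for 7 and 12 peaks, intergenic for 3 and 4, and promoter for 0 and 1. The intergenic peaks, which include the strongest of replicate 2, lay in PVT1 by GENCODE but in no gene by the deposited annotation.

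The PVT1 peaks had scores of 9.43 to 20.9 in replicate 1 (median 12.4) and 9.67 to 41.0 in replicate 2 (median 20.7). The strongest in replicate 1, 59.6 kb from the start, had 111 tags (91.3 to 134), and the same site had a score of 35.8 and 241 tags (212 to 273) in replicate 2. The strongest in replicate 2, at 358.7 kb, had 276 tags (244 to 311), and its score in replicate 1 was 18.3 with 97 tags (78.7 to 118). The same sites were thus the strongest pair in both replicates, in opposite order. The median percentile was 91.6 and 94.7. Scores on chromosome 8 were high in general, with a median of 8.30 against 5.85 elsewhere in replicate 1 and 10.7 against 7.14 in replicate 2. Ranked among chromosome 8 peaks alone, the PVT1 median percentile was 80.5 and 87.3. Whether the number of copies of this chromosome in OVCAR5 bears on these scores was not tested.

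The density of peaks in the GENCODE span of PVT1, with 1000 bp before it, was 2.54 per 100000 bp in replicate 1 and 4.32 in replicate 2. Chromosome 8 as a whole had 0.381 and 0.776, so the density in PVT1 was high for its chromosome as well. Among the 1964 GENCODE genes of 200000 to 800000 bp, the median was 0.285 and 0.757, and 12 genes in replicate 1 and 6 in replicate 2 were denser than PVT1. In the 500000 bp before the PVT1 window there were 3 and 6 peaks (0.60 and 1.2 per 100000 bp), and in the 500000 bp after the gene 4 and 6 (0.80 and 1.2). The heptamer was present in 6 of the 10 peaks of replicate 1 and 6 of the 17 of replicate 2, beside 30.5% and 28.2% of all peaks. The degenerate core was in 7 and 10 of them, beside 57.9% and 56.9% of all peaks. The AP-1 site was in 3 and 8, beside 16.4% and 16.6%. These differences were not tested. Near the PVT1 start the replicates differed: a peak 779 bp inside the gene, with a score of 13.8 (93 tags, 75.1 to 114), was found in replicate 2 alone, and the nearest peak of replicate 1 was at 37.3 kb.

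**Figure D3:**
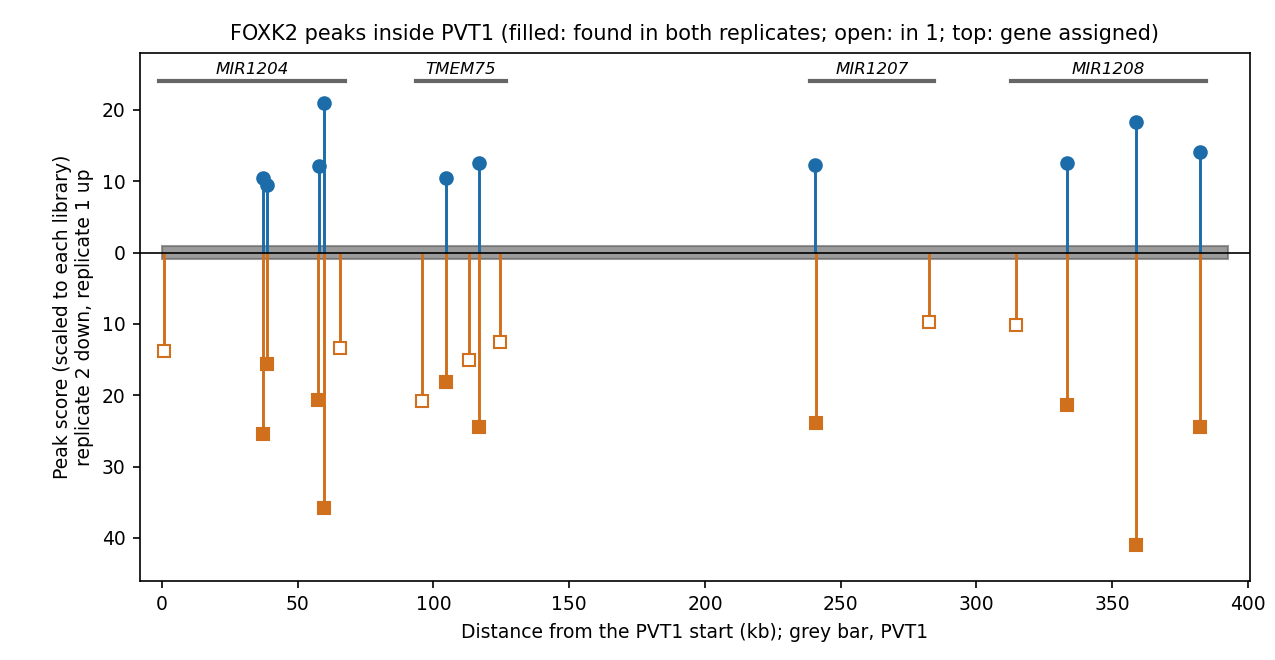
FOXK2 peaks inside PVT1 by distance from its start in kb (x axis) and peak score (y axis, replicate 1 up and replicate 2 down, each on the scale of its own library). Filled symbols overlap a peak of the other replicate, and bars at the top give the gene named by the annotation. Each of the 10 peaks of replicate 1 has a partner below it, and 7 of the 17 in replicate 2 do not.

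GAS5, SNHG1 and SNHG12 are snoRNA host genes, whose introns give rise to snoRNAs that guide chemical modification of ribosomal RNA. None was assigned a peak. By position, GAS5 (minus strand, chr1:173858559-173868882) had a peak of replicate 2 at chr1:173868426-173868682, 328 bp inside its GENCODE start. It had a score of 6.25 (42 tags, 30.3 to 56.8; percentile 38.5), and was named for ZBTB37, a zinc finger gene that starts 156 bp from it in the opposite direction. SNHG1 (minus strand, chr11:62851978-62855953) had a peak of replicate 2 at its GENCODE start, chr11:62855912-62856168, with a score of 11.7 (79 tags, 62.5 to 98.5; percentile 79.1). That peak was named for SLC3A2, which encodes the heavy chain of the CD98 amino acid transporter and starts 36 bp away. Neither peak was called in replicate 1, whose nearest peaks were 153149 bp and 14629 bp away. The first lay in introns of both GAS5 and ZBTB37, which overlap here on opposite strands. The second spanned the divergent GENCODE starts of SNHG1 and SLC3A2, so neither peak belongs to 1 gene alone. The peaks were 77.6% and 64.2% G and C, and neither held a forkhead word or an AP-1 site within 100 bp of the centre. SNHG12 had no peak, and the nearest to its GENCODE start was 29359 bp and 29309 bp away in an intron assigned to TRNAU1AP, with scores of 5.85 and 6.10 (percentiles 49.1 and 36.7).

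H19 and MEG3 are imprinted RNAs, each expressed from the maternal chromosome, and were without peaks. The nearest peak to the H19 start was 60529 bp and 60451 bp away in the replicates, assigned to MRPL23, with scores of 5.85 and 7.88. For MEG3 it was 294052 bp away in replicate 1, assigned to MEG9, and 23466 bp away in replicate 2, assigned to DLK1, with scores of 4.15 and 5.06. The GENCODE starts used for these distances differ from the RefSeq starts for MEG3, H19, SNHG12 and GAS5, and also for MALAT1 and SPINT1-AS1. For MEG3 the GENCODE start is chr14:100779410, whereas its RefSeq promoter sequences begin at chr14:100825858 or beyond. The MEG3 distances therefore depend on the start used, as does the place of the SNHG1 peak relative to the start of SNHG1. Without the input libraries, the absence of a peak says only that none was called at the depth of these lists, whose weakest peaks held 16 tags and 21 tags.

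**Figure D4:**
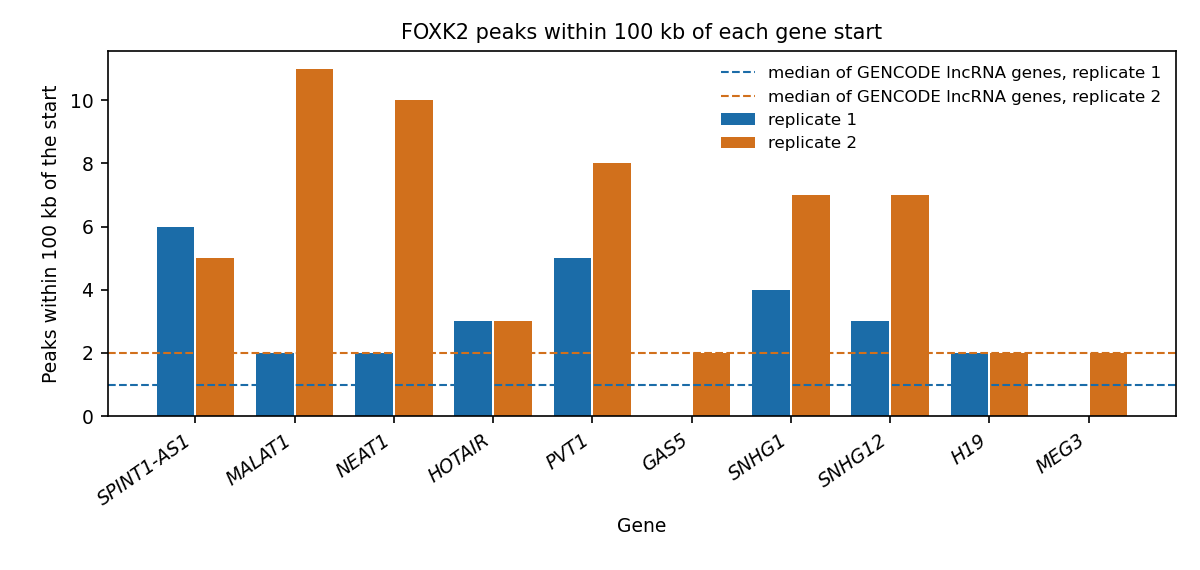
Number of FOXK2 peaks within 100 kb of the GENCODE start of each gene (bars, y axis) in replicate 1 and replicate 2. Dashed lines are the medians over 18866 GENCODE lncRNA genes, 1 in replicate 1 and 2 in replicate 2. MALAT1 and NEAT1 rise to 11 and 10 in replicate 2 from 2 in replicate 1, and SPINT1-AS1 has the most in replicate 1, 6.

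Near the starts of the 10 genes, FOXK2 peaks were unevenly spread. SPINT1-AS1 had 6 and 5 peaks within 100000 bp, PVT1 had 5 and 8, SNHG1 had 4 and 7, and SNHG12 had 3 and 7. HOTAIR had 3 in each replicate, H19 had 2 in each, and GAS5 and MEG3 had 0 in replicate 1 and 2 in replicate 2. In replicate 1, 8 genes were above the lncRNA median of 1 peak, as were 33.2% of all lncRNA genes, and 2 were below it. In replicate 2, 7 were above the median of 2 peaks, as were 43.7% of all lncRNA genes, and 3 were at it. MALAT1 and NEAT1, whose windows overlap, are counted separately here. At least 6 peaks in replicate 1, as for SPINT1-AS1, were near 1.52% of lncRNA genes, but at least 5 in replicate 2 were near 19%. The median over protein-coding genes was 1 and 3.

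The promoters of these genes were searched for the same words. RefSeq promoter sequences (hg38, 250 bases before to 50 bases after each start) matched 7 of the 10 genes. None had the heptamer, which is present in 3.42% of 35116 promoters, or the AP-1 site, present in 4.95%. The degenerate core, present in 24.3%, was found 3 times in the GAS5 promoter and once in the second of the MALAT1 promoters, and not in those of SNHG12, H19, SNHG1, MEG3 and SPINT1-AS1. These are letters in a window and were not matched to peaks, except that the MALAT1 and SNHG1 promoters overlapped the replicate 2 peaks described for them.

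To set the 10 genes beside others of their kind, 62 further lncRNA genes were listed: 15 snoRNA hosts, 10 microRNA hosts and 37 cancer lncRNAs. Of these 62, 22 had an assigned peak in replicate 1 and 32 in replicate 2. There were 20 with a peak in both (32.3%, beside 20.3% of RefSeq lncRNA genes), 12 in replicate 2 alone, 2 in replicate 1 alone and 28 in neither. For 19 of the 20 the peaks overlapped. The count in both was 3 of 15 snoRNA hosts, 5 of 10 microRNA hosts and 12 of 37 cancer lncRNAs. SNHG3, SNHG6 and SNHG7 were among the snoRNA hosts without an assigned peak, like GAS5, SNHG1 and SNHG12, and TUG1, HOTTIP and HOTAIRM1 were among the cancer lncRNAs without one. The median percentile of the best peak over listed genes with a peak was 67.7 in replicate 1 and 75.5 in replicate 2, beside 57.3 and 60.7 for all noncoding and 57.3 and 63.0 for all protein-coding genes with a peak.

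Only the 20 listed genes with a peak in both replicates could be ranked by mean percentile. For the best 5 of these, the best peaks of the replicates overlapped. DLEU2, the host of MIR15A and MIR16-1 on chromosome 13, had a promoter peak with scores of 29.1 and 44.9 (percentiles 99.2 and 99.3), 966 bp and 956 bp before its TSS, which held 2 heptamers. EPB41L4A-AS1, a snoRNA host, had one with scores of 24.3 and 42.2, 243 bp and 267 bp after its TSS, with no heptamer in either. MIR17HG, the host of a microRNA cluster induced by MYC, had one with scores of 22.4 and 37.2, 179 bp and 183 bp before its TSS, with no heptamer in either. CCAT1, which lies like PVT1 on chromosome 8 near MYC, had an intronic peak with scores of 20.0 and 38.2, also without a heptamer in either. MIR100HG had an intronic peak with scores of 14.1 and 18.9 and 1 heptamer, 32773 bp and 32769 bp before its TSS. The SPINT1-AS1 peak, with scores of 22.6 and 57.1, thus ranked below DLEU2 and EPB41L4A-AS1 in replicate 1 and above all 5 in replicate 2.

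**Figure D5:**
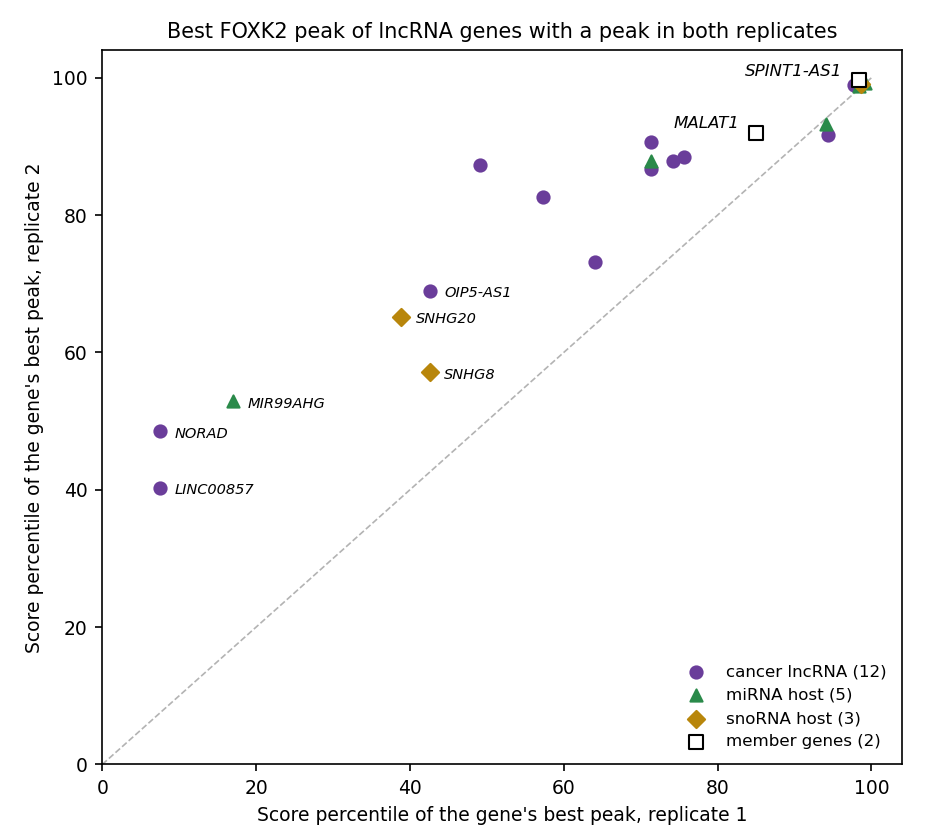
Score percentile of the best FOXK2 peak in replicate 1 (x axis) and replicate 2 (y axis) for the 20 of 62 listed lncRNA genes with an assigned peak in both replicates, by group, and for MALAT1 and SPINT1-AS1 (open squares). The dashed line marks equal percentiles. Genes with more peaks have more chances of a high best peak, and SPINT1-AS1 stands at the top right with 98.4 and 99.6.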

How the data were processed

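The peak lists of 2 biological replicates of FOXK2 ChIP-seq in OVCAR5 were used. According to the study's methods, the authors mapped single-end reads of 50 bp to hg38 with Bowtie2 2.2.6 and called peaks with HOMER 4.10. Peaks were annotated with HOMER in each replicate separately, per the file headers. The study's supplement compares a FOXK2 peak with input, but whether input served as the control in these calls is not given in the sources used here. The deposited peak score is scaled to each library, and the deposited focus ratio is a fraction of tags. Of scores under 10, 100% were whole multiples of a step of 0.189 or 0.149 within 0.05 tags. With HOMER's default scaling this step implied 53000000 and 67200000 tags.

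No threshold was added. Shared peaks overlapped by at least 1 bp. Gene spans came from GENCODE release 44, and gene classes and promoters from RefSeq. Scores were read as tags with exact Poisson intervals. Genes named in the text were the 10 genes and those nearest to, overlapping or assigned any of their peaks. For genes without a peak, the gene assigned the peak nearest to their start was named. Of 62 listed lncRNA genes, the 5 best of the 20 with a peak in both replicates were also named. Other listed genes named were chosen after their values were seen. The 10 genes and the lists were chosen with earlier results of these data known, so no set was tested. Alternatives were limits on distance, promoter peaks, position in the gene, score, list length, overlap, motif and motif window, and leaving out a replicate. With 1 condition, no groups could be compared. Counting steps were tested on simulated data. The 2 input libraries were not analysed here. Python 3.11.15, pandas 2.3.3, scipy 1.17.1, pysam 0.24.0, matplotlib 3.10.9 and samtools 1.23.1 were used.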

Additional observations from a re-analysis of the deposited data

How the results depend on the processing

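No paired analysis was possible because files of the FOXK2 libraries alone were used, which leaves 1 group and no test. Of 44 alternative values for the main counts, 31 stayed within 1.5 times of the value reported and 13 did not. With peaks within 10000 bp of the TSS only, the number of the 10 genes with a peak in both replicates was 1 in place of 2, and that of the wider list was 12 in place of 20. With promoter peaks only, the 10 genes gave 1 in replicate 1, 1 in replicate 2 and 0 in both, and the wider list gave 8. Counted by position, the 10 genes gave 5 in replicate 2 and 1 in both, while the wider list, in a setting added after seeing the data, gave 19. Without replicate 1 or replicate 2, the wider list ranged from 22 to 32 genes, and the 10 genes gave 3 either way. With 500 bp to each side of the centre, 2 assigned peaks held the heptamer in each replicate and the MALAT1 shared site was added. Within 100 bp, the degenerate core in place of the heptamer was in 2 and 3. Overlap by 50% of the shorter peak, centres within 100 bp, the higher-scoring part of each list and lists of equal length left the number of shared peaks at 2 in each replicate. The best-peak percentile of MALAT1 in replicate 2 fell from 92.0 to 78.5 at its promoter, and that of HOTAIR from 21.9 to 16.04 among promoter peaks. With 2 replicates, a peak called in 1 list alone cannot be told apart from a site just under the calling threshold of the other.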

Other observations

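Counting by position instead of by name also moved genes of the wider list. SNHG16, a snoRNA host, was assigned no peak, but 2 peaks of replicate 1 and 6 of replicate 2 lay in it or just before it. DLEU1, the lncRNA gene beside DLEU2, was assigned 1 peak of replicate 1 and 0 of replicate 2, and held 6 and 13. LINC-PINT, a lncRNA induced by p53, held 10 and 16 peaks by position and 6 and 8 by name. PCAT1, on chromosome 8 with PVT1 and CCAT1, held 5 and 9 by position and 1 and 2 by name. In the opposite direction, SNHG5 was assigned 4 peaks of replicate 2 and held 0 by position. Over the 61 listed genes found in GENCODE, 21 had a peak by position in replicate 1, 34 in replicate 2 and 19 in both, beside 12.9%, 22.8% and 11.3% of GENCODE lncRNA genes. These genes were picked after their values were seen, and long genes hold more peaks by position.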
